A study of Triticum aestivum with 18 samples.

Results

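In leaves of a greenbug-resistant wheat line, 171 of the 61290 probe sets on an Affymetrix wheat array had a higher signal at 48 h of aphid infestation than at 0 h, while in the susceptible partner line their signals at 48 h lay near those at 0 h. The members were chosen by measured values, the group means of log2(signal + 16) in these arrays. Control and reporter probe sets were left out, as were probe sets with a gene symbol other than a LOC number. A member had a mean signal of 200 or more in at least 1 group, a resistant 48 h minus 0 h difference of 1.2 or more, and a susceptible difference between -0.7 and 0.5. The members were ordered by the resistant minus the susceptible difference, and the limit of 200 members was not reached. Because the rule used the arrays at 0 h and 48 h, everything said below of 48 h against 0 h is a description without a test.

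The study compared the near-isogenic lines TXGBE273 (resistant) and TXGBE281 (susceptible), grown in a greenhouse and sampled as leaf tissue at the 3-leaf stage. Plants of each line were taken at 0 h, labelled as control, and again once greenbugs of biotype E had fed for 24 h or 48 h, and each of the 6 groups had 3 arrays. The sources used here hold no uninfested plants at 24 h or 48 h, so a difference from 0 h covers infestation, plant age and time of sampling together. Whether replicates were grown or extracted separately is not given in the labels, and the spread behind each p-value may in part be technical. As leaf markers, 10 probe sets of PRK, PsbO, PsbP, petC, FBP and CAT1, genes of photosynthesis, carbon fixation or leaf peroxisomes, had a summed mean signal at 0 h of 392262 in TXGBE273 and 346474 in TXGBE281. The sums were 173083 and 142184 at 24 h and 162097 and 107766 at 48 h. The leaf list as planned also held rbcL, which is not part of these values. At 24 h 1 of the 10 was called higher in TXGBE273 and 0 lower by limma (3 and 1 at an unadjusted p under 0.05), with a median difference of 0.28 on the log2 scale. In sum these markers were thus bright, lower after 0 h in both lines and higher in the resistant line at each time. Some dim probe sets among them went otherwise. A petC probe set had means of 5.09, 77.3 and 65.4 in TXGBE273 and 18.3, 53.8 and 49.2 in TXGBE281 at 0 h, 24 h and 48 h. An FBP probe set had resistant means of 83.7 at 0 h and 133.9 at 24 h. A CAT1 probe set differed between the lines by -1.31 at 24 h, without a call. The part of these markers in the members' values was not tested. The summed signal of 13 grain storage protein probe sets ran from 281 to 5295 per array and was highest at 48 h in the susceptible line. Most of that group's sum came from the probe sets of the gene avnla, with susceptible 48 h means of 1562.5 and 1925. The largest group mean among the other grain probe sets was 161.3, and in sum the grain list without avnla was not highest there. The summed signal of 9 histone H2A probe sets, markers of dividing cells, ran from 713 to 1350.3.

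The greenbug is a phloem-feeding aphid whose salivary secretions injure wheat leaves. In plants with a matching resistance gene, recognition of an attacker typically sets off signalling through kinases, hormones and transcription factors, followed by defence proteins, cell wall changes and secondary metabolites. Bread wheat carries related copies of most genes on its A, B and D subgenomes, and a probe set can read more than one copy. In the probe-set names, the number after Ta or TaAffx denotes the sequence cluster from which the probes were designed. The ending _x_at marks probes that may also bind other sequences, and _s_at and _a_at mark probes shared by several transcripts.

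Of the 171 members, 163 had no gene in the platform annotation and are given by probe-set name. The other 8 belonged to 6 genes with LOC numbers, all of which were found in RefSeq's wheat gene table (assembly IWGSC CS RefSeq v2.1). That table gave a further name for LOC543318 alone, with the synonyms amy1 and BMY1, symbols in use for amylases, which break down starch. No role is given for the other 5 LOC genes, since neither table states one. The members came from 159 clusters, and 106 of the names began with Ta and 65 with TaAffx. Endings of the _x_at type were found in 14.6% of members and 12.6% of the 46232 probe sets tested, and of the _s_at type in 8.19% and 4.90%.

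The resistant 48 h minus 0 h differences of the members ran from 1.21 to 4.09 on the log2 scale, with a median of 1.57. Among all tested probe sets the median was -0.06, and 7.21% had a difference of 1.2 or more. The susceptible differences ran from -0.62 to 0.50 with a median of 0.20, and the resistant minus susceptible difference from 0.74 to 4.42. In 166 members all 3 resistant arrays at 48 h lay above all 3 at 0 h, which was so for 21.0% of all tested probe sets. Member signals were mostly moderate. The median of the resistant group means was 174 at 0 h and 630.1 at 48 h, and 58 members reached a mean of 1000 and 8 a mean of 10000 at 48 h. In the susceptible line the medians were 218, 219.6 and 254 at 0 h, 24 h and 48 h.

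**Figure D1:**
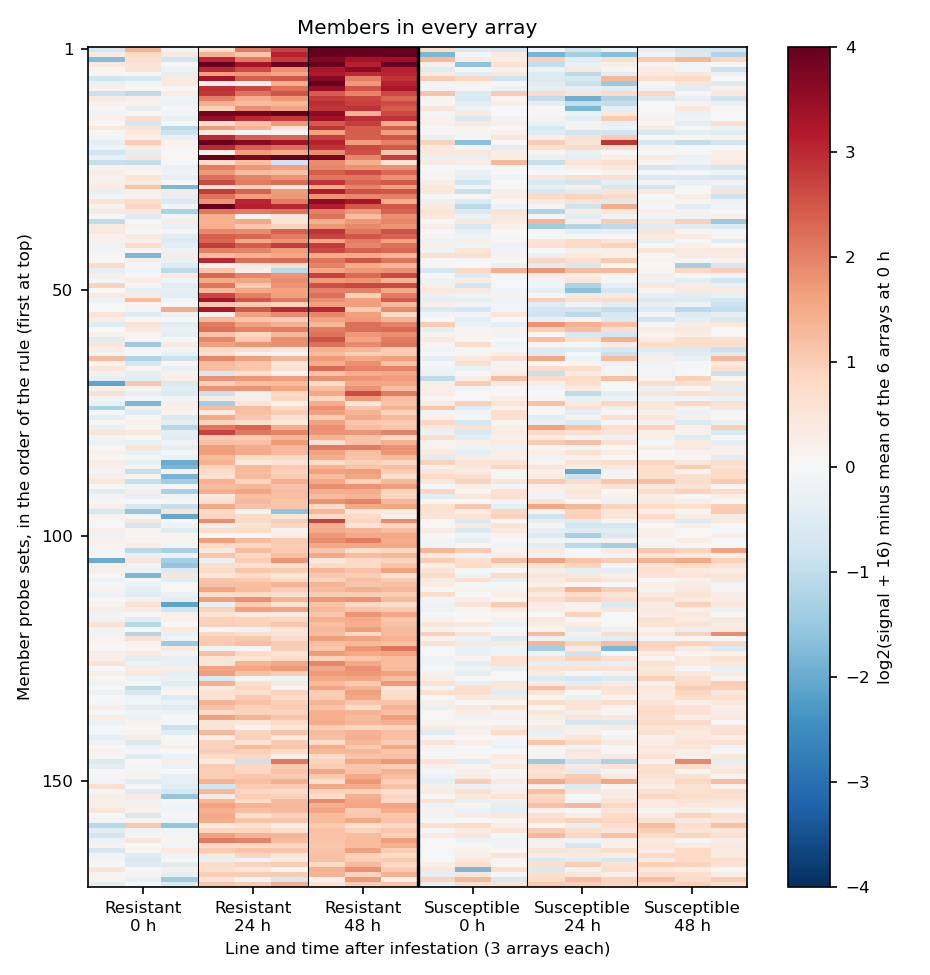
Each row is 1 of the 171 members in the order of the rule and each column is 1 array, 3 per group. Colour gives log2(signal + 16) minus the mean of the 6 arrays at 0 h and is cut off at 4 in either direction. The resistant 24 h and 48 h columns are red in most rows, and the susceptible columns are mostly pale.

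Near the limits of the rule the values were continuous. TaAffx.110677.1.S1_at entered with a resistant difference of 1.21 and Ta.18852.1.S1_at missed with 1.197. On the susceptible side Ta.19085.1.S1_at entered at 0.499 and Ta.3386.1.S1_at missed at 0.505. At the lower limit Ta.23348.3.A1_x_at, at -0.62, was the lowest inside, and Ta.19723.1.S1_at, at -0.73, lay just outside. Ta.7542.2.S1_s_at had a largest group mean of 200.4 and TaAffx.81109.1.S1_at, left out, one of 199.7. Altogether 2669 probe sets met every condition but the susceptible one. Of these 2457 had a susceptible difference above 0.5 and 41 one below -0.7, so the members are a small share of the probe sets that were higher at 48 h in the resistant line.

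The word "only" in the description of these members depends on the scale. The deposited arrays share a common trimmed mean. On a scale set by the bacterial hybridisation controls, the median susceptible 48 h minus 0 h difference of the members was 0.88 and that of all tested probe sets 0.56, and 134 of the 171 members exceeded 0.5 in the susceptible line. The median resistant difference was then 2.01, against 0.34 over all tested probe sets. In all 171 members the resistant difference stayed above the susceptible one on that scale. The rule largely fixed this in advance, so no conclusion is drawn from it. The smallest resistant minus susceptible difference of a member was 0.74 on the deposited scale. The median of that quantity over all tested probe sets was 0.04 on the deposited scale and -0.19 on the control scale. Differences below are relative to the deposited scale.

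The arrays at 24 h took no part in the differences that chose the members, so the comparison of the lines at 24 h was the test made. It asked whether the members already differed between infested resistant and infested susceptible leaves one day earlier. Of the 168 members that reached a mean of 200 at 0 h or 48 h, 86 were higher in the resistant line at 24 h (limma, adjusted p under 0.05 over all 46232 probe sets), or 51.2%. Over all tested probe sets the same test called 5.15%, of which 2.38% were higher in TXGBE273 and 2.78% lower. None of the 168 members was called lower by limma. At an unadjusted p under 0.05, 3 members were lower and 111 higher, where 7.11% and 8.76% of all tested probe sets were. The median difference of the 168 was 0.95 on the log2 scale, against 0.05 for all tested probe sets. In all 86 called members, and in 115 of the 168 (68.5%), the 3 resistant arrays lay above the 3 susceptible arrays, which held for 11.2% of all tested probe sets. In 2 members the 3 resistant arrays lay below, as they did for 9.1% of all tested probe sets. The differences of the called members ran from 0.61 to 4.07, and their standard errors had a median of 0.22.

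**Figure D2:**
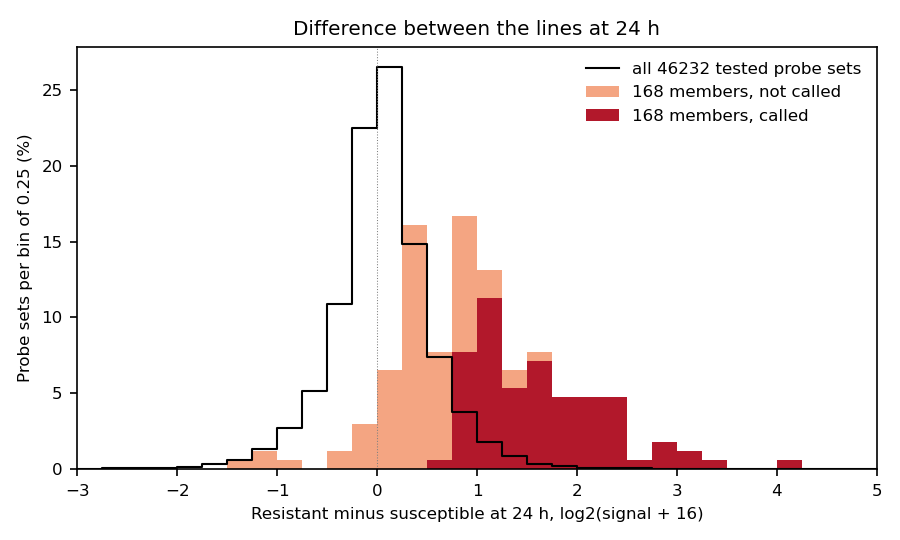
The bars give the percentage of the 168 members in each bin of the resistant minus susceptible difference at 24 h, in log2(signal + 16), with called members in dark red. The black outline gives all 46232 tested probe sets, centred near 0, and the members are centred near 0.95.

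Without a call at 24 h were 82 members, of which 71 had a positive difference. Their median difference was 0.39 and the median standard error 0.32. They were dimmer, with a median largest group mean of 373 against 1243.5 for the called members, and the part of signal level in the calls was not tested. The share called also went with the order of the rule. Among the first 43 members, 33 of 41 that could be counted were called, whereas among ranks 130 to 171 it was 10 of 42.

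Set against 0 h, most of the difference lay in the resistant line. Among the 86 called members the median 24 h minus 0 h difference was 1.45 for TXGBE273 and -0.05 for TXGBE281. A resistant difference of 1.2 or more was seen in 58 of them, and a susceptible difference below -0.5 in 12. Among the members not called the medians were 1.10 for TXGBE273 and 0.07 for TXGBE281. These values share the 0 h arrays with the rule and are given without a test. The calls used the same 24 h arrays, which favours a high resistant value at 24 h among the called members.

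Among the 168 members counted, the largest called difference at 24 h belonged to a probe set without a gene. The next, 3.48, belonged to LOC542941, described further on. Ta.5208.1.S1_x_at had resistant signals of 131, 151 and 92.7 at 0 h, 1776, 1138 and 1701 at 24 h, and 4005, 954 and 1789.5 at 48 h. Its susceptible signals were 116, 21.3 and 157 at 0 h, 41.8, 79.5 and 119.6 at 24 h, and 111, 90.5 and 101 at 48 h. The lines overlapped at 0 h and were far apart afterwards, and the 24 h difference was 4.07 ± 0.49 (SE, limma adjusted p = 1.63e-05). TaAffx.28280.1.S1_at had resistant signals of 749, 679 and 522 at 0 h, 2424, 1641 and 1961 at 24 h, and 4216, 3810 and 2950 at 48 h. Susceptible signals of TaAffx.28280.1.S1_at were 640.1, 382 and 638, then 290.4, 141 and 245, then 388, 462 and 323. Here the resistant arrays were higher and the susceptible arrays lower at 24 h than at 0 h, without overlap in either line, and the lines differed at 24 h by 3.10 ± 0.24 (adjusted p = 6.61e-08).

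Ta.16907.1.S1_at had the smallest adjusted p of the largest 8 differences among the 168, 2.47e-08, with a 24 h difference of 2.91 ± 0.21 (SE, limma). Its resistant mean signals were 942 ± 126 (SD, n = 3), 4219 ± 859 and 4954 ± 1047 at 0 h, 24 h and 48 h, and its susceptible means 750.4 ± 256, 544 ± 73.5 and 724 ± 33.2. Every resistant array at 24 h and 48 h was above every other array of this probe set. Ta.413.1.S1_at differed by 3.17 ± 0.43 at 24 h, when its resistant signals were 9560, 5201 and 4837 and its susceptible signals 542, 334 and 1671. Its resistant mean was lower at 48 h, at 3956 ± 1138. The dim probe set TaAffx.55588.1.S1_at had a highest signal of 12.1 at 0 h over both lines and differed by 2.98 ± 0.41 at 24 h, with resistant signals of 173, 140.1 and 96.8. The size of this difference also depends on the offset, being 5.09 with an offset of 1 and 1.57 with 64, both called.

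Some members gave very bright signals. Ta.23327.1.S1_at had resistant signals of 3133, 4498 and 2252 at 0 h, 31693, 22196 and 19340 at 24 h, and 28847, 21959 and 20918 at 48 h. The highest susceptible signal of Ta.23327.1.S1_at was 5851, and the 24 h difference was 2.82 ± 0.29 (SE, limma adjusted p = 2.9e-06). The resistant level of this probe set was thus as high at 24 h as at 48 h. Ta.27757.1.S1_at had the highest signal of all members, with resistant means of 13339 ± 3649 (SD, n = 3), 47796 ± 7343 and 48620 ± 5808. Its susceptible means were 11058 ± 1657, 18057 ± 1611 and 7823 ± 289.8, so its 3 susceptible arrays at 24 h were above those at 0 h and those at 48 h below. The lines differed by 1.40 ± 0.16 at 24 h (adjusted p = 1.22e-05). Ta.27757.1.S1_at was named after its values were seen, as were the members of small groups named further on, from Ta.15123.1.A1_at to TaAffx.28815.1.S1_at, and the companion probe sets of members' clusters.

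**Figure D3:**
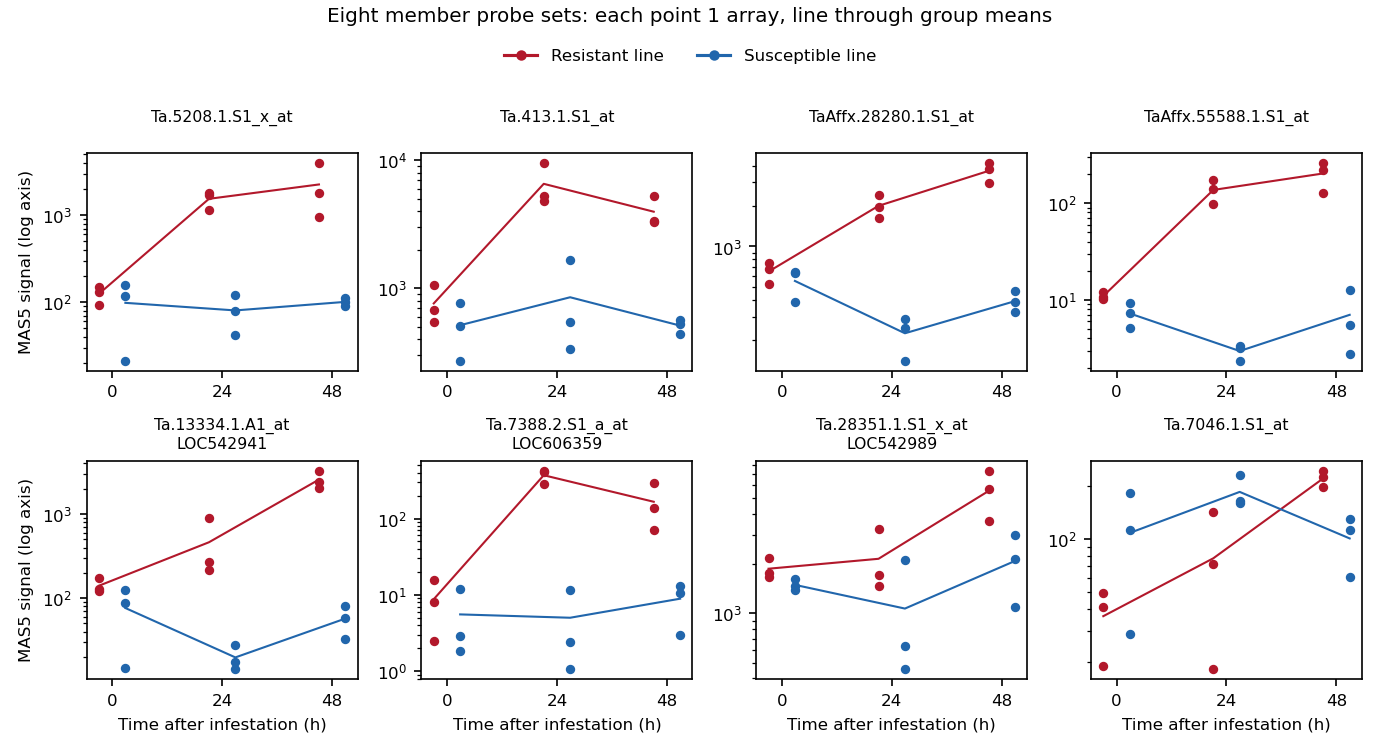
Each panel shows 1 member probe set, with MAS5 signal on a log axis against hours after infestation. Points are single arrays, 3 per group, and lines join the group means. In the upper row and for LOC542941 and LOC606359 the resistant arrays at 24 h and 48 h lie above all susceptible arrays, whereas for LOC542989 the lines overlap at 24 h and the resistant mean of Ta.7046.1.S1_at is the lower one until 48 h.

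The member first in rank was TaAffx.65806.1.A1_at. It had resistant signals of 2.55, 59.7 and 10.8 at 0 h, 28.3, 106 and 179 at 24 h, and 695, 449 and 487 at 48 h, and the highest susceptible signal was 34.0. Its 24 h difference of 2.13 ± 0.58 (SE) was called by limma at an adjusted p of 0.036. Its susceptible signals at 24 h were 11.6, 1.68 and 9.74, below the 40th percentile of every array (51.0 to 70.3), so the size of this difference depends on the offset: it was 3.54 with an offset of 1, where the call was lost, and 1.13 with an offset of 64. The call was also lost without resistant 24 h replicate 2 (2.00) or 3 (1.66), without susceptible 24 h replicate 1 (2.25), 2 (1.93) or 3 (2.20), and without resistant 48 h replicate 3 (adjusted p = 0.05125). Ta.9127.1.S1_at and Ta.3746.1.S1_at, the third and the fifth in rank, were higher in the resistant line at 24 h by 2.24 ± 0.47 and 2.37 ± 0.30. In Ta.3746.1.S1_at the resistant signals at 24 h were 2441, 1840 and 1066, against 253, 394 and 306 in the susceptible line. TaAffx.81593.2.S1_s_at, the seventh, differed by 2.67 ± 0.57 (adjusted p = 0.00609), and its susceptible arrays at 24 h ranged from 18.8 to 120.5. Ta.8081.1.S1_at, the eighth, was not called at 24 h (1.43 ± 0.53, adjusted p = 0.149), although its resistant signals at 48 h were 1159, 197 and 529.5 and its highest susceptible signal was 75.9.

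Among the members with a gene, LOC542941 (Ta.13334.1.A1_at) was second in rank. Its resistant signals were 122, 172 and 128 at 0 h, 271, 218 and 897 at 24 h, and 3231, 2429 and 2052 at 48 h. Its susceptible signals were 14.6, 88.4 and 126, then 14.3, 27.4 and 17.5, then 81.6, 57.6 and 32.3. The resistant arrays stood apart from the susceptible arrays at 24 h and 48 h, and the 24 h difference was 3.48 ± 0.49 (SE, limma adjusted p = 0.000125).

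LOC606359 was read by 3 probe sets, and all 3 were members. They were the members whose mean reached 200 only at 24 h, so they entered through the 24 h signals and were left out of the count above. The probe set Ta.7388.2.S1_a_at of LOC606359 had resistant signals of 2.49, 15.7 and 8.10 at 0 h, 416, 287 and 405 at 24 h, and 289.7, 71.0 and 137 at 48 h. The highest susceptible signal was 13.1. Its other probe sets, Ta.7388.2.S1_x_at and Ta.7388.1.S1_at, had resistant means of 314 ± 64.2 and 264 ± 73.4 (SD, n = 3) at 24 h and of 126 ± 98.0 and 149 ± 112 at 48 h, with a highest susceptible signal of 17.4. All 3 probe sets had a higher resistant mean at 24 h than at 48 h, and in Ta.7388.1.S1_at resistant arrays at 0 h and 48 h overlapped. The lines differed at 24 h by 4.21 in Ta.7388.2.S1_a_at, 3.95 in Ta.7388.2.S1_x_at and 3.74 in Ta.7388.1.S1_at. These values are given without a test, since the 24 h signals let the probe sets in.

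LOC778392 and LOC100037599 had smaller differences at 24 h, both called by limma. The LOC778392 member Ta.351.2.S1_x_at had resistant signals of 3138, 3459 and 2344 at 0 h, 6143, 4604 and 3811 at 24 h, and 8639, 7773 and 8210 at 48 h. Its susceptible signals at 24 h were 2325, 1485 and 2546, and the difference was 1.2 ± 0.19 (SE, adjusted p = 0.000346). A second LOC778392 probe set, Ta.351.1.S1_at, which was not a member because its resistant 48 h minus 0 h difference was 1.10, was higher by 0.87 at 24 h (adjusted p = 0.000544). The third, Ta.351.3.S1_at, was dim, with no group mean above 141, and its resistant 48 h minus 0 h difference was -0.69. LOC100037599 (Ta.16082.1.A1_a_at) had resistant signals of 2278, 2259 and 2400 and susceptible signals of 1207, 829 and 1495 at 24 h, a difference of 1.0 ± 0.16 (adjusted p = 0.000323). Its other probe set, Ta.16082.1.A1_at, had a susceptible 48 h minus 0 h difference of 1.18 and was therefore no member. It was higher by 0.91 at 24 h, a call lost without resistant 24 h replicate 3 (0.83), and by 0.58, still called, without susceptible 24 h replicate 2.

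The remaining genes were not called at 24 h. The amylase-type gene LOC543318 (Ta.3.1.S1_at) had resistant signals of 171, 63.4 and 605 and susceptible signals of 37.3, 67.5 and 43.8 at 24 h, with overlap. The difference was 1.71 ± 0.58 (SE, limma adjusted p = 0.111), and without resistant 24 h replicate 2 it was 2.41 and called. Without resistant 24 h replicate 3 it was 0.92 and not called, so its size depended on single arrays. LOC542989 (Ta.28351.1.S1_x_at) had resistant signals of 1456, 1699 and 3273 and susceptible signals of 631, 2111 and 455 at 24 h, again with overlap. Its difference was 1.23 ± 0.43 (adjusted p = 0.121), and 1.87 with a call without susceptible 24 h replicate 2. Leaving out susceptible 24 h replicate 3 instead gave 0.79 and no call. At 48 h its resistant signals were 3622, 5694 and 7319 and its susceptible signals 2990, 2149 and 1095. The other 2 probe sets of LOC542989 had susceptible 48 h minus 0 h differences of 0.70 and 1.12, so for this gene the susceptible line was also higher at 48 h than at 0 h by those probe sets.

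Clusters with several members gave repeated readings of what may be one transcript or related copies, and these are not independent. In cluster Ta.5331 the 3 members agreed closely. Ta.5331.1.A1_a_at had resistant signals of 381, 342 and 273 at 0 h, 1161, 1194 and 1079 at 24 h, and 3295, 2907 and 3043 at 48 h. Its susceptible signals were 444, 247 and 479.6, then 229, 163 and 252, then 466, 485 and 289.8. The resistant arrays were higher at each later sampling without overlap, while the susceptible mean was lowest at 24 h, and the 24 h difference was 2.35 ± 0.23 (SE, limma adjusted p = 1.12e-06). Ta.5331.1.A1_x_at and Ta.5331.2.A1_at differed by 2.11 ± 0.19 and 2.18 ± 0.40, the latter by 1.40 with an offset of 64.

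In cluster Ta.23348 the probe sets did not agree. Its 3 members Ta.23348.1.A1_at, Ta.23348.1.A1_x_at and Ta.23348.3.A1_x_at had resistant means of 6836, 5631 and 13796 and susceptible means of 1764, 1533 and 4438 at 24 h. They differed between the lines by 1.95 ± 0.21, 1.83 ± 0.19 and 1.64 ± 0.14 (SE, limma adjusted p of 6.31e-06, 4.18e-06 and 2.25e-07). The other probe sets of the cluster, Ta.23348.2.S1_at and Ta.23348.3.A1_a_at, had similar means in both lines at 24 h. These were 2192 resistant and 2196 susceptible for the first, and 3454 and 3809 for the second. In cluster Ta.4328 the dim members Ta.4328.1.S1_x_at and Ta.4328.1.S1_at were higher in the resistant line at 24 h by 1.81 ± 0.43 and 2.24 ± 0.46. The first call was lost without resistant 24 h replicate 1 (1.65) or 3 (1.80).

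In all, 64 of the 159 clusters had further probe sets that were no members, 125 in number, of which 116 were tested. At 24 h limma called 29 of these companions (25%) as higher in TXGBE273 and 0 as lower, against 2.38% and 2.78% of all tested probe sets. At an unadjusted p under 0.05, 60 companions were higher and 1 lower, where 8.76% and 7.11% of all tested probe sets were. Their median resistant and susceptible 48 h minus 0 h differences were 0.87 and 0.36. Of the 31 companions with a resistant difference of 1.2 or more, 25 were kept out because the susceptible difference exceeded 0.5. The companion Ta.5208.1.S1_at had resistant means of 44.6, 1626 and 2517 and susceptible means of 46.8, 93.7 and 87.6 at 0 h, 24 h and 48 h. Its 24 h difference was 3.94 (limma adjusted p = 5.95e-05). The companion Ta.8614.1.S1_at belonged to LOC100049032, a gene with no member of its own, and missed the rule with a susceptible 48 h minus 0 h difference of 0.64. Its resistant means were 631, 3411 and 4063, its susceptible means 546, 563 and 843, and its 24 h difference 2.56 ± 0.25 (adjusted p = 1.67e-06). In the same cluster the member differed by 2.27 at 24 h and another companion by 1.47, both called. A further companion of that cluster differed by 0.18 without a call. In cluster Ta.23307 the member Ta.23307.1.S1_at had resistant means of 2164 ± 483 (SD, n = 3), 4561 ± 948 and 7153 ± 438 and susceptible means of 2000 ± 602, 868 ± 115 and 1423 ± 51.7. Its companion Ta.23307.3.S1_at went further in the susceptible line, with means of 5089, 1575 and 1372, while the resistant means were 5891, 15328 and 18305. The lines differed at 24 h by 2.36 ± 0.20 for the member (adjusted p = 1.78e-07) and by 3.27 for the companion (adjusted p = 3.53e-08).

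**Figure D4:**
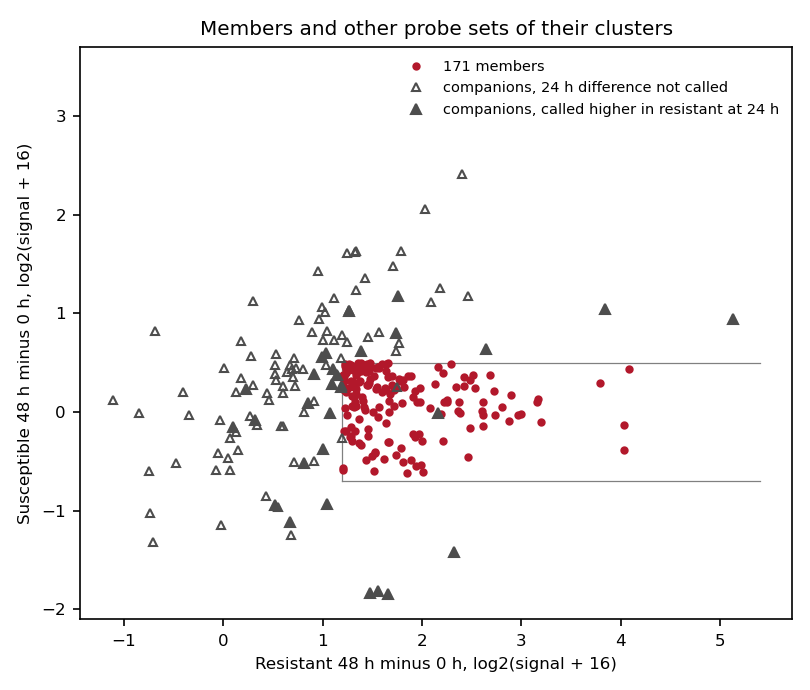
Each red point is 1 of the 171 members and each triangle 1 of the 116 tested companions from the same clusters, placed by the resistant (x) and susceptible (y) 48 h minus 0 h difference in log2(signal + 16). Grey lines mark the limits of the rule, and filled triangles are the 29 companions called higher in the resistant line at 24 h, which lie both above and below the limits for the susceptible line.

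The members differed in timing within the resistant line. The 24 h minus 0 h difference had a median of 1.29, and 94 members already had 1.2 or more at 24 h, against 5.86% of all tested probe sets. In 140 members the 3 resistant arrays at 24 h lay above those at 0 h (22.4% of all tested probe sets). From 24 h to 48 h the resistant mean was higher in 138 members and lower in 33, and in 104 it moved by 0.5 or less. These comparisons share the 0 h or 48 h arrays with the rule.

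**Figure D5:**
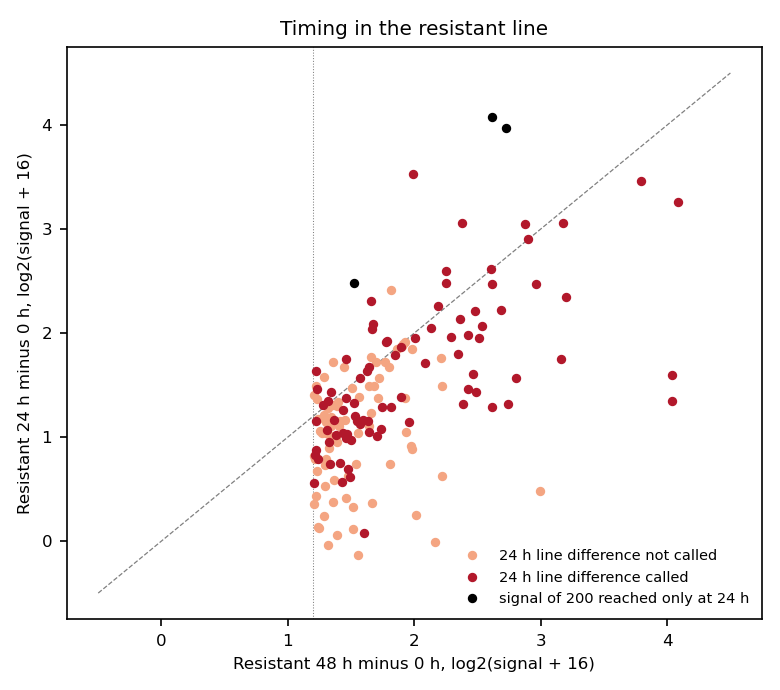
Each point is 1 member, placed by its resistant 48 h minus 0 h (x) and 24 h minus 0 h (y) difference in log2(signal + 16). The dashed line marks equal differences and the dotted line the limit of 1.2. The 3 black points are LOC606359, above the dashed line for all 3 probe sets, and points near 0 on the y axis are members whose level at 24 h was close to that at 0 h.

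A late group of 17 members had a resistant 24 h minus 0 h difference under 0.5. This choice used the resistant 24 h arrays and so favoured few calls, and nothing is read from their number. Of the 17, 1 was called between the lines at 24 h, where 5.15% of all tested probe sets were. That was Ta.15123.1.A1_at, with resistant signals of 250.2, 311 and 309 at 0 h, 291, 286 and 340.2 at 24 h, and 1004, 854 and 872 at 48 h. Its susceptible signals were 299.6, 253 and 314 at 0 h and 191, 104 and 183 at 24 h. The call (0.91 ± 0.20, limma adjusted p = 0.00661) thus went with lower susceptible arrays at 24 h, not with higher resistant ones. Ta.4041.1.S1_at, TaAffx.50506.1.S1_at and Ta.5391.1.A1_at had resistant 24 h minus 0 h differences between -0.14 and -0.00 on the log2 scale, and resistant means of 138, 181 and 213 at 24 h and 630.1, 481 and 716 at 48 h.

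At the other end, TaAffx.54541.1.S1_at and 2 probe sets of LOC606359 were lower by 1 or more at 48 h than at 24 h in the resistant line. TaAffx.54541.1.S1_at had resistant signals of 1600.5, 1016 and 813 at 24 h and 664, 239.8 and 308 at 48 h. Its susceptible signals were 143, 98.9 and 565 at 24 h and 34.6, 25.1 and 31.2 at 48 h, so it was higher at 24 h than at 0 h in both lines by group mean. The 24 h difference between lines, 2.34 ± 0.59 (SE, limma adjusted p = 0.0222), lost its call without resistant 24 h replicate 1 (2.07) or 2 (2.40) or susceptible 24 h replicate 1 (2.11) or 2 (1.87). With Ta.8769.1.S1_at and Ta.22137.1.S1_at it made up the 3 members with a susceptible 24 h minus 0 h difference of 1.2 or more, namely 1.71, 1.31 and 1.23. For these 3 a susceptible increase by group mean was present at 24 h and gone or smaller at 48 h. Of all tested probe sets 6.05% had such a susceptible difference.

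A starting level below that of the susceptible line was common among the members. The resistant mean at 0 h was below the susceptible mean in 112 of 171, and in 26 the 3 resistant arrays at 0 h lay below the 3 susceptible arrays, against 5.31% of all tested probe sets. The rule favours low resistant arrays at 0 h, so nothing further is read from this. At 48 h the 3 resistant arrays lay above the 3 susceptible arrays in 145 members (16.4% of all tested probe sets), again among arrays the rule used. In Ta.20778.3.A1_at, TaAffx.55626.1.S1_at, Ta.9742.3.S1_a_at and Ta.19138.1.S1_at the resistant mean at 48 h was still below the susceptible mean, at 167 against 216, 131 against 208, 251 against 290.0 and 264 against 289.

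Among the 3 members lower in the resistant line at 24 h at an unadjusted p under 0.05 was again Ta.19138.1.S1_at. Ta.7046.1.S1_at had resistant signals of 142, 72.4 and 18.2 and susceptible signals of 230.4, 159.6 and 164 at 24 h, and differed by -1.34 ± 0.52 (SE, limma adjusted p = 0.172). TaAffx.28815.1.S1_at differed by -1.02 and Ta.19138.1.S1_at by -1.05 (limma adjusted p of 0.282 and 0.289). At 48 h the resistant means of the 3 were 221 ± 23.1, 398 ± 135 and 264 ± 185 (SD, n = 3), and the susceptible means 101 ± 35.7, 282 ± 43.4 and 289 ± 44.4.

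With the lines exchanged in the rule, 200 probe sets were found (the limit was reached). Of the 198 that could be counted, 99 (50%) were lower at 24 h in TXGBE273 by limma and 0 were higher (1 at an unadjusted p under 0.05), against the 2.78% of all tested probe sets called lower. The exchanged list was cut by rank at the limit and the list of members was not. Since the share called went with rank among the members, the shares of both lists are not alike in kind. The difference between them was not tested. Among 9 probe sets of the named defence genes PR5, Glc1, XIP-I, TaGlu1a, WSZ2a, COMT1 and WZF1, 1 was called as higher at 24 h in TXGBE273 and 0 as lower (2 and 1 at an unadjusted p under 0.05). That was TaGlu1a, a beta-glucosidase gene, with a difference of 4.43 ± 0.28 (SE, limma adjusted p = 5.46e-09), and the median of the 9 was -0.04.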

How the data were processed

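Leaf RNA of 18 samples was hybridised to 18 one-colour wheat arrays. The deposited values were MAS5 intensities on a linear scale, MAS5 being named in the submitters' processing notes and its version not given in the sources used here. Trimmed by 2% at both ends, the mean deposited intensity was 500.1 on every array, which shows a common scaling. Detection calls were not used here. The number of arrays limits the precision.

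Signals were taken as log2(signal + 16) with no further normalization. Probe sets above the 40th percentile of the array in at least 3 arrays were tested, 46232 in number, all 171 members among them, after leaving out 111 control and 64 reporter probe sets. A model of the 6 groups with a variance trend was fitted (limma 3.58.1, R 4.3.3), and p-values were adjusted by the Benjamini-Hochberg method over all probe sets tested. A probe set was called at an adjusted p under 0.05. The fit was first tested on simulated data, with 100 probe sets raised by 1 and 100 by 2 on the log2 scale in the resistant 24 h arrays. It recovered 54 of the first and 93 of the second, with 11 false calls, so many differences of 1 would be missed.

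Symbols are those of the array's annotation table and can be outdated, and synonyms were looked up in the gene table by gene identifier. Named were the first 10 members in rank, all with a LOC symbol, and the 8 largest called differences at 24 h among the 168 counted. Also named were the members at the limits of the rule and 4 clusters with several members. The clusters were the 3 with 3 members and, of the 6 with 2, the one whose first member ranked highest. The rule also allowed the 4 most negative called differences, of which there were 0. Replicate numbers did not pair the lines at 24 h: deviations of same-numbered 24 h arrays correlated at 0.01, 0.03 and -0.03. Pairing by replicate number at or between other times was not examined. Correlation between arrays of a group was 0.936 to 0.963, and no array stood apart by this measure. The members and gene lists were chosen with earlier results of these data known.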

Additional observations from a re-analysis of the deposited data

How the results depend on the processing

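The count of members higher in the resistant line at 24 h, 86, lay between 75 and 92 over the other scalings, offsets, filters, variance models and array sets, and between 73 and 89 with 1 array left out. It was 86 with the replicate number as a block. Members called lower numbered 0 in every one of these 29 settings, and 64 of the 86 were called higher in all of them. No named difference at 24 h changed sign. On the hybridisation control scale the median difference of all tested probe sets at 24 h moved from 0.05 to 0.19, and that of the members from 0.95 to 1.11. Of all calls at 24 h, 1100 were higher in TXGBE273 and 1283 lower, and the share higher was 33.2% after median centring and 68.0% on the hybridisation control scale. The total of 2383 calls was 1544 without the variance trend, 3641 with array weights and 1519 from the 24 h arrays alone. With 1 array left out it was 1431 to 3232, the highest without susceptible 24 h replicate 2 and the lowest without susceptible 24 h replicate 3. Without resistant 24 h replicate 3 it was 1577. The total thus depended on single arrays at 24 h, and the cause was not tested. Of the 171 members, 37 still met the rule on the hybridisation control scale, where the susceptible differences are larger, 122 to 152 did with other scalings or offsets, and 142 to 171 with 1 array left out. Among named probe sets, TaAffx.65806.1.A1_at lost its call with the replicate block (adjusted p = 0.05137), an offset of 1, the stricter filter, no variance trend and the 24 h arrays alone. TaAffx.54541.1.S1_at and Ta.4328.1.S1_x_at lost theirs with an offset of 1, TaAffx.54541.1.S1_at and Ta.16082.1.A1_at without the variance trend, and Ta.15123.1.A1_at and Ta.16082.1.A1_at from the 24 h arrays alone, while LOC542989 (Ta.28351.1.S1_x_at) gained one on the hybridisation control scale and with array weights. The block changed no other call of a named probe set. At 3 arrays a group and a median standard error of 0.32, the 82 members without a call are not shown to be equal between the lines.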
